A study of Equus caballus with 15 samples.

Results

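Colony stimulating factors are the secreted proteins that drive growth, survival and maturation of macrophages and granulocytes, and 8 genes of this system were followed in equine macrophages: the ligands CSF1 (M-CSF), IL34, CSF2 (GM-CSF) and CSF3 (G-CSF), and the receptor genes CSF1R, CSF2RA, CSF2RB and CSF3R. The genes were taken by symbol. A row with the symbol was used for 6 of the 8, among 16932 genes listed. CSF2RA and CSF2RB, the chains of the GM-CSF receptor, were not analysed here, so GM-CSF was followed as a ligand without its receptor.

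Receptor and ligand pair in a simple way in this family. CSF1R is a receptor tyrosine kinase of monocytes and macrophages that binds either M-CSF or IL-34, GM-CSF binds a specific chain joined to a beta chain shared with IL-3 and IL-5, and G-CSF binds a homodimer of CSF3R and is best known for raising neutrophil output. Macrophages grown in M-CSF and macrophages grown in GM-CSF differ in their surface receptors and chemokines, which is why both are used as culture models. Inflammatory stimuli such as IL-1ß are known inducers of CSF2 and CSF3 in many cell types, while CSF1 is made more constitutively.

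Every culture in this series was made with M-CSF: mononuclear cells from the blood of 2 horses were kept for 5 days with recombinant human M-CSF at 30 ng/ml, and the added protein is not read as RNA. Macrophages were then left untreated or given IL-1ß at 10 ng/ml for 24 h, alone or together with an orthobiologic therapy (OT) that made up 25% of the medium. There were 3 OTs, each given with IL-1ß: MSC-CM, the conditioned medium of mesenchymal stromal cells; PRP lysate, made by lysing platelet rich plasma; and ACS, which is autologous conditioned serum. Each of the 5 conditions held 3 libraries. The OT libraries replicate the product from 3 donor horses, whereas the study describes the untreated and IL-1ß libraries as technical replicates of the macrophages, so p-values measure only the spread between these libraries. The donor of the macrophages is not given per library. A further period in fresh medium after treatment is described by the study and not in the sample descriptions.

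Values are read counts scaled to a common library size (CPM), deposited by the authors. CPM is not divided by transcript length, so levels were compared between libraries and not between genes. The libraries held 28410735 to 47894068 reads on genes, and the lowest value of any member, 3.34 CPM for CSF3 in an untreated library, lay well above the 1 CPM (28.4 reads in the shallowest library) used as the filter on the mean. A pair of libraries stood apart from the others: the third IL-1ß library had 4285 genes listed at 0 and the first PRP lysate library 3728, against 1938 to 3219 in the other 13. Their ribosomal protein genes summed to 71955 and 55154 CPM, against 29636 to 51359. Counts of genes called by limma were also computed without this pair. Counts of genes without overlap and of genes under an unadjusted p were not. Of 10 macrophage markers all 10 had a row, and CD68, a lysosomal protein of macrophages, lay at 1340 to 2157 CPM, but CD14, the lipopolysaccharide co-receptor, lay at only 1.38 to 4.32 CPM. T cell genes were also present, with CD3E, a chain of the T cell receptor complex, at 140 to 520 CPM. Marker sums of B cells were 12.2 to 48.2 CPM, of mast cells and basophils 4.52 to 25.6 CPM, of dendritic cells 150 to 349 CPM and of stromal and endothelial cells 69.1 to 511 CPM, the last mostly from PECAM1, which leukocytes express too. In bulk RNA of this kind, fewer cells of a type and less RNA per cell cannot be told apart.

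The family did not move as a block. With PRP lysate, CSF2 and CSF1 were higher than with IL-1ß alone, and with ACS CSF1 was higher, whereas MSC-CM left no member past the threshold and IL-1ß itself left none past it against untreated cells. A gene was called changed when its adjusted p (limma on log2(CPM + 1), Benjamini-Hochberg over the 11628 genes tested) was at most 0.05 and its fold at least 2. All 6 members were tested. PRP lysate against IL-1ß gave 2 calls of 6, against 3.09% of all genes tested, and the libraries of the compared groups did not overlap for 4 of 6, against 15% of all genes. ACS against IL-1ß gave 1 call, against 2.21% of all genes, and no overlap for 3 members, against 26.2%. MSC-CM against IL-1ß gave 0 calls of members by limma, edgeR and DESeq2, against 0% of all genes by limma and 2 of 16932 genes by DESeq2. CSF3 was the only member there with an unadjusted p of at most 0.05 and a fold of at least 2, a rule that 0.361% of all genes met, and the only member whose libraries did not overlap, against 8.79%. IL-1ß against untreated gave 0 calls by limma and edgeR, against 0.292% of all genes. Unadjusted p was under 0.05 there for 2 members, against 13% of all genes. These were CSF1 and CSF3, which were also the 2 without overlap, against 16.2% of all genes, and the 2 that DESeq2 called, with 167 of 16932 genes. All 3 OT comparisons share the IL-1ß libraries.

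**Figure D1:**
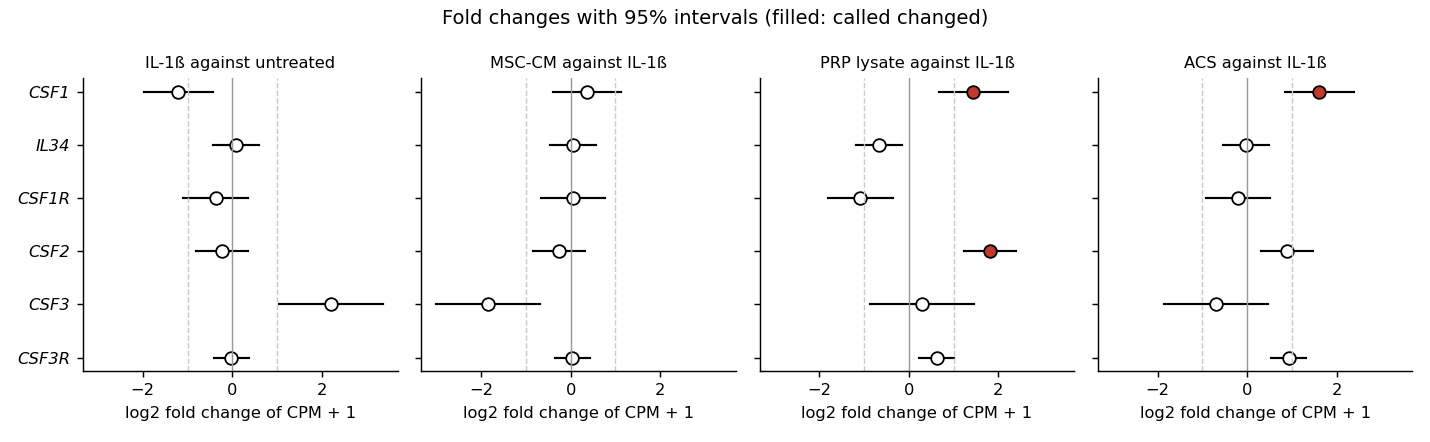
Log2 fold changes of CPM + 1 for the 6 members (rows) in the 4 comparisons made by the study (panels). Points are fitted fold changes, bars are 95% intervals, dashed lines mark a 2-fold change and filled points were called changed. Filled points stand at 1.44 and 1.82 with PRP lysate (CSF1 and CSF2) and at 1.61 with ACS (CSF1), while CSF3 had the widest intervals.

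Without the pair of libraries that stood apart, PRP lysate against IL-1ß kept CSF1 and CSF2 as its 2 calls. ACS against IL-1ß then had 3 calls (CSF1, CSF2 and CSF3R), IL-1ß against untreated 1 (CSF3) and MSC-CM against IL-1ß 0. Calls over all genes were also more frequent in that fit, with 514 of 11627 for PRP lysate against IL-1ß (359 of 11628 with all libraries), 308 for ACS against IL-1ß (257) and 92 for IL-1ß against untreated (34). Over all genes, the median log2 fold change against IL-1ß was 0.16 (MSC-CM), 0.11 (PRP lysate) and 0.13 (ACS), and scaling by RLE size factors brought these to 0.00, 0.02 and 0.02. Under that scaling PRP lysate against IL-1ß gave CSF1R as a further call, as described with that gene.

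**Figure D2:**
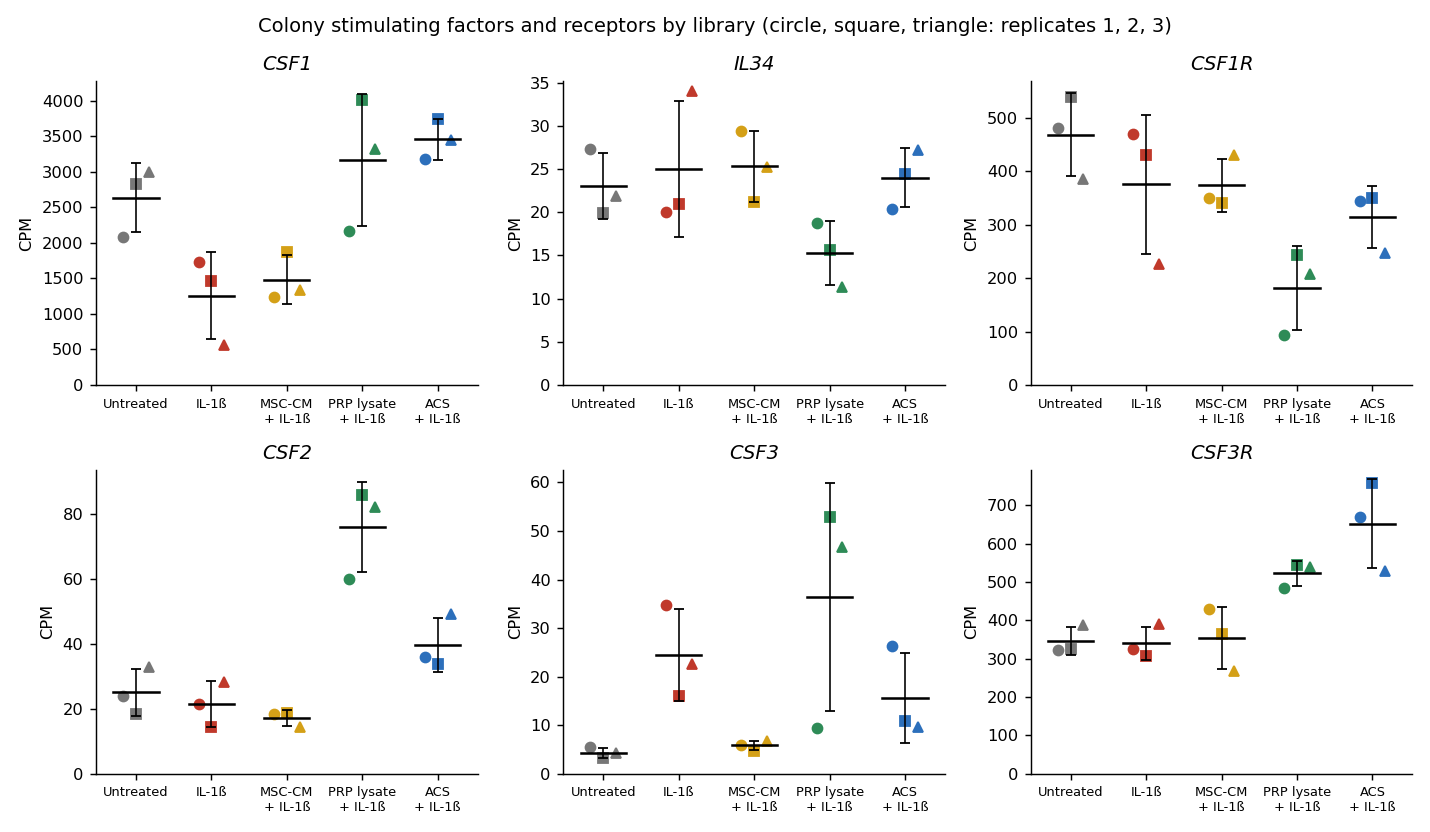
CPM of each member (panels) in each library, by condition. Points are libraries, with circle, square and triangle for replicates 1, 2 and 3; horizontal lines are means and bars the SD of 3 libraries. CSF2 with PRP lysate stands at 60.1 to 85.9 CPM, above every other library, and CSF1 with IL-1ß and with MSC-CM stands at or below 1877 CPM, under every library of the other conditions.

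CSF1 encodes M-CSF itself, the factor the cultures were given as protein, and it was read at 565 to 4016 CPM over the 15 libraries. The gene (ENSECAG00000017715) lies on chromosome 5, 54864306 to 54878603 in EquCab3.0. Untreated macrophages held 2080, 2822 and 2994 CPM (2632 ± 486, SD, n = 3) and those with IL-1ß alone 1731, 1467 and 565 CPM (1254 ± 611). With MSC-CM the libraries held 1233, 1877 and 1333 CPM (1481 ± 347). With PRP lysate they held 2168, 4016 and 3316 CPM (3167 ± 933), and with ACS 3177, 3743 and 3445 CPM (3455 ± 283). Thus all IL-1ß and MSC-CM libraries lay below all others, and the ACS libraries lay above all untreated ones.

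Against IL-1ß alone, CSF1 rose with PRP lysate by 1.44 on the log2 scale (SE 0.354, 95% interval 0.68 to 2.21, limma adjusted p = 0.0329) and with ACS by 1.61 (SE 0.354, 0.85 to 2.38, adjusted p = 0.0259). The IL-1ß library at 565 CPM was the one that stood apart, and without it the differences were 0.94 (adjusted p = 0.0446, under the 2-fold limit) and 1.11. The PRP lysate call was also lost without its second (adjusted p = 0.133) or the third library (adjusted p = 0.112), and the ACS call without its first (0.0671), second (0.115) or the third library (0.0948). With no filter on low values the PRP lysate call was lost as well (0.0588). Adjusted p over the alternatives ran from 0.000826 to 0.397 for PRP lysate and from 0.000316 to 0.205 for ACS. The change with IL-1ß against untreated was -1.20 (-1.97 to -0.44, adjusted p = 0.182), and -0.71 without the library at 565 CPM. DESeq2 on whole reads recovered from the CPM called that decrease (-1.07, adjusted p = 0.0275, in a range of 0.0275 to 0.68). With MSC-CM the difference from IL-1ß was 0.37 (-0.40 to 1.13), and -0.13 without the library at 565 CPM.

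Set beside untreated cells, CSF1 with PRP lysate differed by 0.24 (-0.53 to 1.00) and with ACS by 0.41 (-0.36 to 1.17), both with intervals that cover 0. MSC-CM against untreated gave -0.84 (-1.60 to -0.07, adjusted p = 0.26) and 0 calls among the members by limma, edgeR and DESeq2, against 0.662% of all genes by limma, with CSF1 as the 1 member under an unadjusted p of 0.05 (15.7% of all genes) and the 1 member without overlap (30.8%).

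IL34, the alternative ligand of CSF1R, was expressed at 11.4 to 34.1 CPM. Its gene (ENSECAG00000012327, chromosome 3, 23731835 to 23741316) lies within the span of SF3B3, a splicing factor gene, and the strand setting of the counting was not stated, so reads of the overlap cannot be assigned with certainty. Untreated libraries held 27.4, 19.9 and 21.9 CPM, those with IL-1ß 20.01, 20.96 and 34.06 CPM, and those with MSC-CM 29.5, 21.2 and 25.3 CPM. With PRP lysate the values were 18.8, 15.6 and 11.4 CPM (15.3 ± 3.72) and with ACS 20.4, 24.4 and 27.2 CPM (24.0 ± 3.46). The PRP lysate libraries were the lowest of all 15. The difference from IL-1ß was -0.66 (-1.18 to -0.15, adjusted p = 0.147), short of the threshold and of 2-fold, and -0.43 without the third IL-1ß library. With ACS it was -0.03 (-0.54 to 0.49) and with MSC-CM 0.04 (-0.47 to 0.56), intervals that exclude a 2-fold change either way. SF3B3 itself had a log2 fold change of 0.42 with PRP lysate (adjusted p = 0.31).

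CSF1R, the receptor kinase for M-CSF and IL-34 (ENSECAG00000000860, chromosome 14, 27206474 to 27235726), was lowest with PRP lysate, where CSF1 was high. Untreated libraries held 481, 539 and 385 CPM (468 ± 78.0), those with IL-1ß 470, 431 and 227 CPM (376 ± 130), and those with MSC-CM 350, 341 and 431 CPM (374 ± 49.3). PRP lysate gave 94.3, 244 and 207 CPM (182 ± 78.1) and ACS 345, 351 and 248 CPM (315 ± 57.7). The lowest PRP lysate and the lowest IL-1ß library were the 2 that stood apart, and the IL-1ß library at 227 CPM was the only one that overlapped the PRP lysate libraries. Below untreated cells, CSF1R fell by 1.46 with PRP lysate (SE 0.335, -2.18 to -0.73, adjusted p = 0.0364).

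That comparison, PRP lysate against untreated, called 3 of 6 members (CSF1R, CSF2 and CSF3), against 1.6% of all genes, with 5 without overlap (18.6% of all genes). The same 3 were called without the pair of libraries that stood apart, while calls over all genes went from 186 to 274. The CSF1R call was kept in 1 of 6 fits that each left out 1 library: it was lost without the first (-1.04, adjusted p = 0.101) or the third PRP lysate library (0.0632), and without the first (0.15), second (0.164) or the third (0.0551) untreated library. It was also lost with no filter on low values (0.0614). Over all alternatives its adjusted p ran from 0.000261 to 0.164 and its direction did not change. Against IL-1ß alone, the difference with PRP lysate was -1.08 (-1.81 to -0.36, adjusted p = 0.0914). It passed with TMM (-1.17, 0.0399) or RLE scaling (-1.18, 0.0337), with DESeq2 (-1.12, 0.00654) and without the third IL-1ß library (-1.41, 0.0183), in a range of 0.00524 to 0.6. Without the first PRP lysate library, which stood apart, this difference was -0.67, under the 2-fold limit. The differences from IL-1ß with ACS (-0.20, -0.93 to 0.52) and MSC-CM (0.05, -0.67 to 0.78) had intervals that cover 0. CSF1R marks macrophages, and the 10 macrophage markers, all with a row and none at 0, summed to 2362 to 4655 CPM with PRP lysate, 3740 to 6980 with IL-1ß, 4684 to 6859 in untreated cells, 4778 to 5849 with MSC-CM and 4209 to 5615 with ACS. The part of the macrophage share in the CSF1R level was not tested.

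Ligand and receptor were also read together in each library as the ratio of CSF1 to CSF1R CPM, which has no absolute meaning because CPM is not divided by length. The ratio was 4.32, 5.23 and 7.78 in untreated libraries, 3.685, 3.403 and 2.489 with IL-1ß and 3.518, 5.505 and 3.096 with MSC-CM. It was 23.0, 16.4 and 16.0 with PRP lysate (18.5 ± 3.92) and 9.22, 10.7 and 13.9 with ACS (11.3 ± 2.39). The conditions with PRP lysate and ACS thus lay above all others and did not overlap each other, and the first PRP lysate library was the highest, with the lowest CSF1R of all. These ratios are given as a description without a test.

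**Figure D3:**
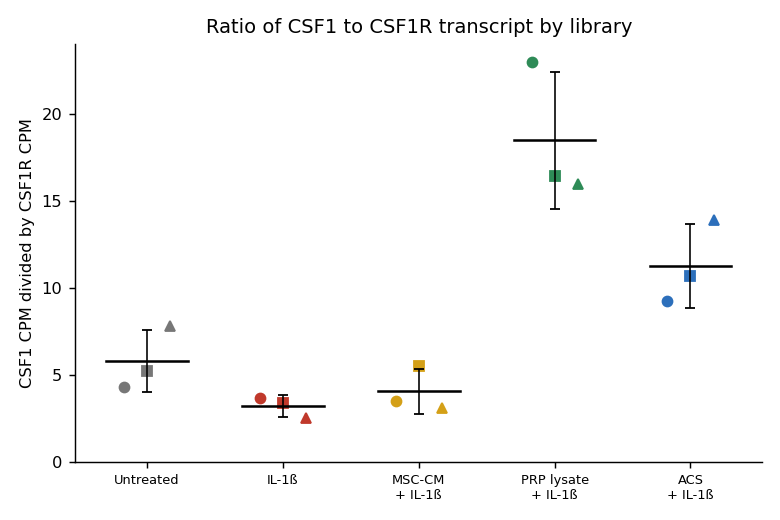
CSF1 CPM divided by CSF1R CPM (no unit) in each library, by condition. Points are libraries, with circle, square and triangle for replicates 1, 2 and 3; lines are means and bars the SD of 3 libraries. The PRP lysate libraries stand at 16.0 to 23.0, those with ACS at 9.22 to 13.9, and all others at or below 7.78.

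CSF2 encodes GM-CSF, a cytokine of activated T cells, macrophages and other cells, and its calls with PRP lysate held under more alternatives than those of any other member. Its gene (ENSECAG00000009678, chromosome 14, 42770877 to 42773246) lies within the listed span of P4HA2, a collagen prolyl hydroxylase gene. Untreated libraries held 24.0, 18.4 and 32.9 CPM (25.1 ± 7.34), those with IL-1ß 21.5, 14.3 and 28.4 CPM (21.4 ± 7.06), and those with MSC-CM 18.5, 18.8 and 14.4 CPM (17.2 ± 2.43). With PRP lysate the values were 60.1, 85.9 and 82.2 CPM (76.1 ± 13.9) and with ACS 36.0, 33.8 and 49.4 CPM (39.7 ± 8.47). All PRP lysate libraries lay above all ACS libraries, which lay above every library of the other conditions.

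CSF2 rose with PRP lysate by 1.82 against IL-1ß (SE 0.267, 1.24 to 2.39, adjusted p = 0.0014), 1.58 against untreated (adjusted p = 0.00638) and 2.07 against MSC-CM (adjusted p = 0.000673). The calls against IL-1ß and against untreated held in all of the 6 fits with 1 library removed, and in 14 of 15 alternatives each. Both were lost only where the 2 compared groups were fitted alone (adjusted p = 0.0828 and 0.0558, the highest of ranges that began at 9.26e-06 and 9.84e-05). Against MSC-CM the call held in 16 of 16 alternatives. With ACS, CSF2 rose against MSC-CM by 1.15 (SE 0.267, 0.57 to 1.72, adjusted p = 0.0469). This call was lost in each of the 6 fits without 1 library, with 0.125, 0.112 and 0.196 without the first, the second and the third ACS library and 0.13, 0.0988 and 0.224 without those of MSC-CM. It was lost too with no filter (0.0642), TMM (0.058), RLE (0.059) and edgeR (0.0722), in a range of 0.00425 to 0.224. Against IL-1ß the difference with ACS was 0.89 (0.32 to 1.47, adjusted p = 0.0935), and it passed without the third IL-1ß library (1.11, adjusted p = 0.0463, range 0.0154 to 0.327). IL-1ß against untreated gave -0.23 (-0.81 to 0.35) and MSC-CM against IL-1ß -0.26 (-0.83 to 0.32), intervals that exclude a 2-fold change. P4HA2, which spans the gene, had a log2 fold change of 0.29 with PRP lysate (adjusted p = 0.288) and 0.11 with ACS (adjusted p = 0.572).

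T cells and NK cells are also sources of GM-CSF, so their markers were read in the same libraries. All 9 T cell markers had a row, IL7R among them being at or near 0, and their sum was 669, 669 and 957 CPM in untreated libraries, 907, 1029 and 1707 with IL-1ß and 1325, 1343 and 1265 with MSC-CM. It was 1752, 875 and 1010 CPM with PRP lysate and 795, 810 and 998 with ACS. The 6 of 7 NK cell markers with a row summed to 224 to 378 CPM in untreated libraries, 274 to 666 with IL-1ß, 349 to 417 with MSC-CM, 373 to 1083 with PRP lysate and 298 to 507 with ACS. The marker sums overlapped between PRP lysate and IL-1ß. Of the PRP lysate libraries, the first, which stood apart, held 60.1 CPM of CSF2 and a T cell sum of 1752 CPM. The second and the third held 85.9 and 82.2 CPM of CSF2 and T cell sums of 875 and 1010 CPM. Over all libraries, the genes most like CSF2 included LTA and IFNG (correlations of 0.928 and 0.920). The part of lymphocytes in the CSF2 level was not tested.

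**Figure D4:**
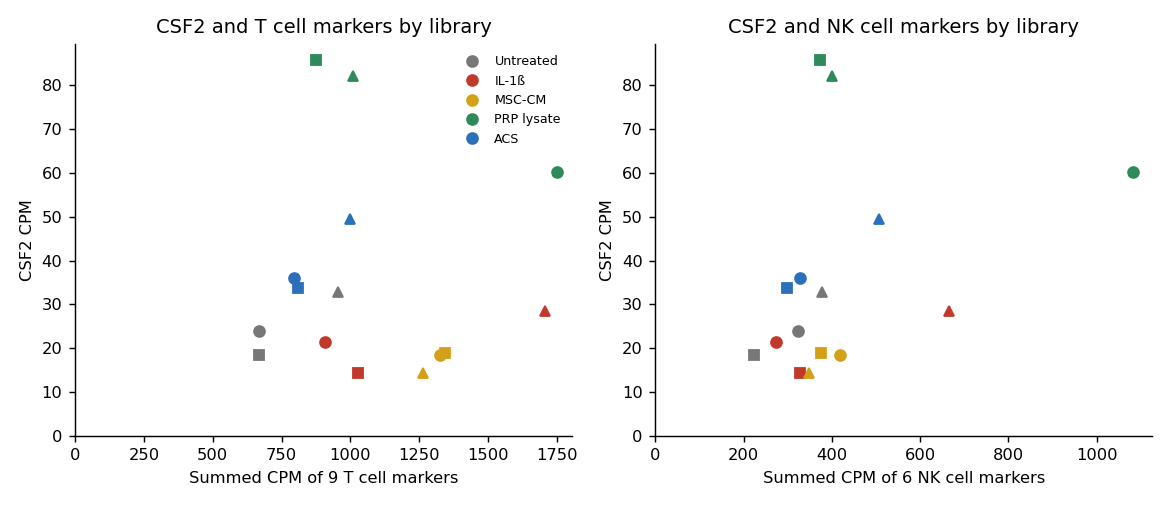
CSF2 CPM against the summed CPM of 9 T cell markers (left) and 6 NK cell markers (right) in the 15 libraries. Colours are conditions and circle, square and triangle replicates 1, 2 and 3. The PRP lysate libraries stand highest at 60.1 to 85.9 CPM of CSF2 over T cell sums of 875 to 1752 CPM, while MSC-CM libraries at 14.4 to 18.8 CPM have sums of 1265 to 1343 CPM.

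CSF3 encodes G-CSF, the granulocyte growth factor, and it had the largest standard error of the members on the log2 scale. The gene (ENSECAG00000008668) lies on chromosome 11, 22538002 to 22540571. Untreated libraries held 5.41, 3.34 and 4.27 CPM (4.34 ± 1.04), those with IL-1ß 34.7, 16.1 and 22.7 CPM (24.5 ± 9.45), and those with MSC-CM 5.96, 4.76 and 6.74 CPM (5.82 ± 0.999). With PRP lysate the values were 9.49, 52.9 and 46.6 CPM (36.3 ± 23.5) and with ACS 26.32, 10.96 and 9.584 CPM (15.6 ± 9.29). Every library with IL-1ß alone therefore exceeded every untreated and every MSC-CM library, and the lowest PRP lysate value came from the library that stood apart.

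The log2 difference with IL-1ß against untreated was 2.21 (SE 0.539, 1.04 to 3.37, adjusted p = 0.104), and with MSC-CM against IL-1ß it was -1.85 (-3.01 to -0.68, unadjusted p = 0.00446, adjusted p = 0.705). The first passed with DESeq2 (2.54, adjusted p = 0.000427) and without the pair of libraries that stood apart (2.23, 0.0106), in a range of 0.000427 to 0.423. MSC-CM against untreated gave 0.36 (-0.80 to 1.52). PRP lysate against IL-1ß gave 0.30 (-0.87 to 1.46, adjusted p = 0.805), an interval that leaves room for more than 2-fold in the upward direction. This difference was 1.06 without the first PRP lysate library, -0.13 without the second and -0.04 without the third.

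CSF3 rose with PRP lysate by 2.51 against untreated (SE 0.539, 1.34 to 3.67, adjusted p = 0.0249) and by 2.15 against MSC-CM (0.98 to 3.31, adjusted p = 0.0411). Without the first PRP lysate library, which stood apart, these values were 3.26 and 2.90. Against untreated the call was kept in the fit without the first PRP lysate library and lost in the other 5 that left out 1 library (adjusted p of 0.0799 and 0.116 without the second and the third PRP lysate library, and 0.0888, 0.122 and 0.0657 without the untreated ones). Against MSC-CM it was kept in 1 of 6 such fits as well, with 0.17 and 0.169 without the second and the third PRP lysate library and 0.111, 0.137 and 0.117 without those of MSC-CM. The call against MSC-CM was also lost with no filter on low values (0.0688). Over all alternatives adjusted p ran from 1.83e-06 to 0.161 and from 1.8e-05 to 0.17. ACS against untreated gave 1.52 (0.36 to 2.68, adjusted p = 0.395, range 0.0295 to 0.883), and ACS against IL-1ß -0.69 (-1.85 to 0.48). Leaving out 1 library put the difference of ACS from IL-1ß at -1.12 to -0.41.

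CSF3R, the G-CSF receptor (ENSECAG00000013457, chromosome 2, 21056641 to 21071145), is a marker of neutrophils but is carried by monocytes too. Untreated libraries held 323, 326 and 389 CPM (346 ± 37.0), those with IL-1ß 324, 307 and 390 CPM (340 ± 43.7), and those with MSC-CM 429, 366 and 268 CPM (354 ± 81.5). PRP lysate gave 485, 545 and 539 CPM (523 ± 32.9) and ACS 670, 759 and 530 CPM (653 ± 115). All PRP lysate and ACS libraries thus lay above all others. Of 10 neutrophil markers, CSF3R included, 5 had a row. The other 4 of these (S100A12, MPO, ELANE and LTF) summed to 0.106 to 4.49 CPM in any library, with 0.106 to 0.813 CPM in the PRP lysate and 0.251 to 0.500 CPM in the ACS libraries. The listed markers CXCR2, S100A8, S100A9, MMP8 and CAMP were not analysed here. The part of neutrophils in the CSF3R level was not tested.

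With ACS the adjusted p of CSF3R passed 0.05 in 3 comparisons, but each fold was under 2: 0.93 against IL-1ß (SE 0.179, 0.54 to 1.32, adjusted p = 0.0143), 0.90 against untreated (adjusted p = 0.0482) and 0.89 against MSC-CM (adjusted p = 0.0232). By adjusted p alone, 3.45%, 0.473% and 1.92% of all genes passed. The fold limit was met against IL-1ß without the third ACS library (1.07, 0.0187) or the third IL-1ß library (1.03, 0.0123), and against MSC-CM without the third ACS library (1.03, 0.026) or the first MSC-CM library (1.04, 0.0276), within adjusted p ranges of 0.00523 to 0.119 and 0.00385 to 0.135. PRP lysate against IL-1ß gave 0.62 (0.24 to 1.01, adjusted p = 0.068). IL-1ß against untreated gave -0.03 (-0.41 to 0.36) and MSC-CM against IL-1ß 0.04 (-0.35 to 0.43), intervals that exclude a 2-fold change.

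The OTs were also compared with each other. PRP lysate against MSC-CM called 2 of 6 members (CSF2 and CSF3), against 2.61% of all genes, and the libraries of all 6 did not overlap, against 19.4%. With the numbers in the titles as pairs and only these libraries fitted, 4 members were called, against 408 of 11648 genes, adding CSF1 (1.07, adjusted p = 0.0123) and CSF1R (-1.14, adjusted p = 0.0293). Without pairing the adjusted p of these were 0.13 and 0.0827, and neither was called in any of the 6 fits that left out 1 library. CSF1R was -0.72 without the first PRP lysate library, which stood apart. The data themselves did not single out these pairs: the second PRP lysate library deviated more like the third MSC-CM library (correlation 0.470) than like the second (0.255). CSF1 also passed against MSC-CM without the pair of libraries that stood apart, which made 3 calls, while calls over all genes went from 304 to 565. ACS against MSC-CM called 1 member (CSF2), against 1.23% of all genes, with 4 without overlap (35.1%), and 3 (CSF1, CSF2 and CSF3) without the pair that stood apart, while calls over all genes went from 143 to 325. That pair holds no ACS or MSC-CM library, so the fold changes stayed the same (CSF3 at 1.16) and only the p-values moved.

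PRP lysate against ACS called 0 members by limma, edgeR and DESeq2, against 0.0946% of all genes by limma. Unadjusted p was under 0.05 for 3 members (5.19% of all genes), the same 3 whose libraries did not overlap (15.6%): CSF2 at 0.92 (0.35 to 1.50, adjusted p = 0.433), CSF1R at -0.88 (-1.60 to -0.16, adjusted p = 0.779) and IL34 at -0.64 (-1.15 to -0.13). Without the first PRP lysate library, which stood apart, CSF1R was -0.46. ACS against untreated called 0 members by limma and edgeR, against 0.37% of all genes by limma, and 1 (CSF3) by DESeq2, against 116 of 16932 genes. Unadjusted p was under 0.05 for 3 members (CSF2, CSF3 and CSF3R), against 7.65% of all genes, and 5 did not overlap (26.3%). Without the pair that stood apart CSF3 was its 1 call, while calls over all genes went from 43 to 134. The pair holds no ACS or untreated library, so here too only the p-values moved.

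How alike the members were to each other is given as a description over the 15 libraries, which share their conditions and depth. The highest Pearson correlation of log2(CPM + 1) was 0.70, between CSF2 and CSF3R, and the lowest was -0.72, between CSF2 and CSF1R. CSF1 and CSF1R were close to 0 at -0.05, and CSF3 and its receptor CSF3R stood at 0.39. The genes most like each member, among the 11628 tested, were PTPRE (0.987), AGO2 (0.984) and GUCY1B1 (0.983) for CSF1, and OSBPL1A (0.968), LAMP1 (0.966) and RGL1 (0.965) for CSF1R. For IL34 they were TPCN2 (0.897), CYSTM1 (0.866) and CPT1C (0.855). For CSF2 they were LTA (0.928), IFNG (0.920) and CCL3 (0.914), for CSF3 CXCL6 (0.950), PPBP (0.917) and IL1B (0.916), and for CSF3R CD1A1 (0.912) and DKK3 (0.890).

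The listed neighbours on the chromosomes were read beside the members. Within 100 kb there were 1 listed gene beside CSF1, 5 beside CSF1R, 3 beside IL34, 2 beside CSF2, 10 beside CSF3 and 4 beside CSF3R, and none of those tested was called in the 4 comparisons of the study. PDGFRB, the kinase receptor gene 17.8 kb from CSF1R, had a mean of 0.668 CPM and was not tested. MED24, a Mediator subunit gene 1.72 kb from CSF3, had a log2 fold change of 0.14 with IL-1ß against untreated.

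Genes known to differ between macrophages grown in M-CSF and in GM-CSF were read from 2 lists drawn up from general knowledge. All lists were chosen with earlier results of these data known, so their counts are a description and not a test. For these and the lists that follow, the share of all genes called against IL-1ß was 3.09% with PRP lysate and 2.21% with ACS, and without the pair of libraries that stood apart 514 and 308 of 11627 genes were called. Of the M-CSF list, 11 of 14 genes had a row and 9 were tested. With PRP lysate 5 of 9 fell against IL-1ß and 0 rose, with a list median of -1.87 against 0.11 for all genes, and with ACS 3 fell and 0 rose, with a median of -0.68 against 0.13. With MSC-CM 0 were called (limma, edgeR and DESeq2, with 0 under an unadjusted p of 0.05) and the median was -0.17 against 0.16. CD163, the haemoglobin scavenger receptor, went from 563 ± 173 CPM with IL-1ß to 11.4 ± 3.48 with PRP lysate (-5.50, adjusted p = 9.04e-06) and 64.6 ± 25.0 with ACS (-3.12, adjusted p = 0.00149). MERTK, a receptor for apoptotic cells, fell with PRP lysate (-2.69), and STAB1, a scavenger receptor, fell with PRP lysate (-2.66) and ACS (-2.18). LGMN, a lysosomal protease, fell with PRP lysate (-2.02) and ACS (-1.48). Without the pair of libraries that stood apart, 5 genes fell with PRP lysate and 5 with ACS. Without the first PRP lysate library STAB1 with PRP lysate was -1.97. The ACS call of STAB1 was lost with a pseudocount of 0.1 (adjusted p = 0.0608), with no filter (0.064), without any of the 3 ACS libraries and without the second or the third IL-1ß library (adjusted p of 0.0596 to 0.188).

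Of the GM-CSF list, 12 of 14 genes were tested. With PRP lysate 3 rose and 2 fell against IL-1ß (median 0.09 against 0.11 for all genes), with ACS 4 rose and 0 fell (0.77 against 0.13), and with MSC-CM 0 were called by limma, edgeR and DESeq2, 0 having an unadjusted p under 0.05 (median -0.01 against 0.16). CCL22, a chemokine for CCR4-bearing T cells, rose from 84.3 ± 29.4 CPM to 523 ± 54.4 with PRP lysate (2.67, adjusted p = 0.000183) and 839 ± 60.1 with ACS (3.36, adjusted p = 7.72e-05). CCL17, which binds the same receptor, rose by 2.41 and 2.62, and INHBA, the activin A subunit, by 1.52 and 2.33. FLT1, a receptor of VEGF, was the remaining call with ACS (1.74). TGM2, a transglutaminase, fell with PRP lysate (-1.55), as did HTR7, a serotonin receptor (-1.32). Without the pair of libraries that stood apart 4 rose and 1 fell with PRP lysate, and 4 rose and 1 fell with ACS. Leaving out the first PRP lysate library alone gave 5 up and 1 down. The HTR7 call was lost in all of the 6 fits that left out 1 library but the one without the third PRP lysate library (adjusted p of 0.063 to 0.0996), and with a pseudocount of 0.1 (0.0577), no filter (0.0763) or edgeR (0.0603). That of INHBA with PRP lysate was lost without its second or the third library or the second or the third IL-1ß library (0.0648 to 0.125), and that of FLT1 without any ACS library or the second or the third IL-1ß library (0.0505 to 0.101). Both lists hold genes that other cytokines also control.

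**Figure D5:**
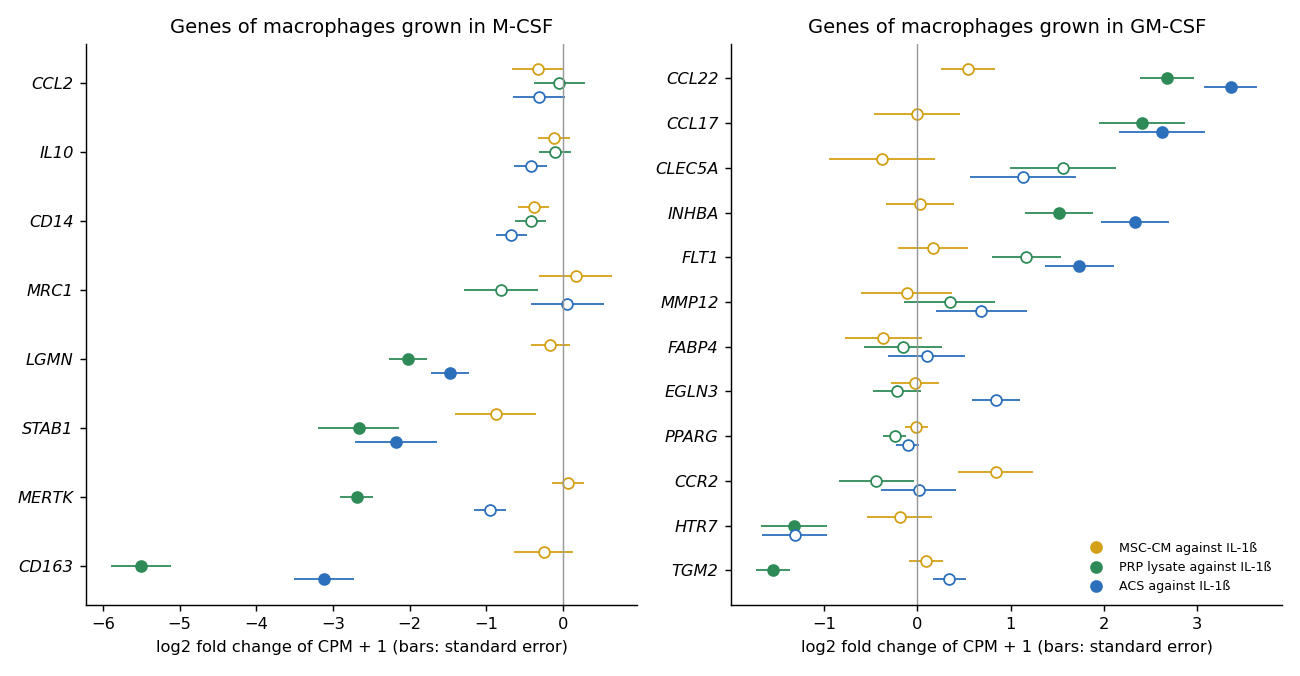
Log2 fold changes of CPM + 1 against IL-1ß for genes of the M-CSF list (left, 8 genes) and the GM-CSF list (right, 12 genes) with MSC-CM, PRP lysate and ACS. Points are fitted fold changes, bars their standard errors, and filled points were called changed. CD163 lies furthest left at -5.50 with PRP lysate and CCL22 furthest right at 3.36 with ACS, and no MSC-CM point is filled.

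Signalling genes below the receptors were read next. Of 22 genes of CSF1R signalling and shedding, 0 rose and 2 fell with PRP lysate (3.09% of all genes were called), and 1 rose and 1 fell with ACS (2.21%). The list medians were -0.04 and 0.06, against 0.11 and 0.13 for all genes. LYN, a Src family kinase of haematopoietic cells, fell with PRP lysate (-1.74), and SRC itself rose with ACS (1.00), a value on the fold limit that TMM, RLE, edgeR and DESeq2 put under it, with a call also lost with no filter (adjusted p = 0.0511). The call of SRC was lost without any ACS library or the third IL-1ß library (adjusted p of 0.0683 to 0.153), and that of LYN without the second IL-1ß library (0.0537). Without the pair of libraries that stood apart ACS gave 0 up and 2 down. Of 17 genes of JAK-STAT signalling, used by the GM-CSF and G-CSF receptors, 0 were called in any comparison with IL-1ß by limma, edgeR or DESeq2, and 7 with PRP lysate, 6 with ACS and 3 with MSC-CM had an unadjusted p under 0.05, which 17.5%, 20.5% and 5.6% of all genes tested also had. CISH and PIM1, targets of STAT5, had log2 fold changes of 0.83 each with PRP lysate and 0.72 and 0.67 with ACS.

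Of 11 tested myeloid transcription factors, 1 rose and 1 fell with PRP lysate and 2 rose with ACS, beside 3.09% and 2.21% of all genes called. The list medians were 0.19 and 0.30, against 0.11 and 0.13 for all genes. IRF8, a factor of monocyte and dendritic cell development, rose with both (1.22 and 1.37), and EGR2 rose with ACS (1.35). The EGR2 call was lost without any ACS library or the second or the third IL-1ß library (adjusted p of 0.0643 to 0.176), and with no filter (0.0646). Without the pair that stood apart 2 rose and 1 fell with PRP lysate, and 1 rose and 1 fell with ACS. Of 15 tested regulators of CSF2 and CSF3 transcripts, CEBPD, a C/EBP factor of acute inflammation, was the only call: it rose from 9.14 ± 1.04 CPM in untreated cells to 47.4 ± 4.19 with IL-1ß (2.26, adjusted p = 0.000228) and lay at 6.666 ± 1.503 with PRP lysate (-2.67 against IL-1ß, adjusted p = 9.87e-06) and 8.16 ± 0.208 with ACS (-2.40, adjusted p = 7.72e-05). The list medians were 0.32 and 0.33 with PRP lysate and ACS.

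Of 11 tested cytokines and inflammatory genes that are induced beside CSF3, 2 rose and 1 fell with PRP lysate and 1 rose and 1 fell with ACS, beside the same 3.09% and 2.21% of all genes. The list medians were 0.59 and 0.31. TNF rose from 30.3 ± 8.07 CPM to 121 ± 15.7 with PRP lysate (1.99, adjusted p = 0.0008) and 79.5 ± 2.42 with ACS (1.39, adjusted p = 0.0147), IL6 fell with both (-2.55 and -2.12), and CXCL1, a neutrophil chemokine, rose with PRP lysate (1.05). Without the pair that stood apart 6 rose and 1 fell with PRP lysate, where calls over all genes went from 359 to 514. Without the first PRP lysate library IL6 with PRP lysate was -1.80. The CXCL1 value was under the 2-fold limit with TMM (0.97), RLE (0.96), edgeR (0.98) and DESeq2 (0.96), and its call was lost with no filter (adjusted p = 0.0593). The CXCL1 call was also lost without the second or the third PRP lysate library or the second or the third IL-1ß library (adjusted p of 0.0612 to 0.142). With ACS, that of IL6 was lost without the second or the third ACS library or any IL-1ß library (0.05 to 0.178), with a pseudocount of 0.1 (0.0629) and with no filter (0.0586), and that of TNF without the second or the third ACS library or the second IL-1ß library (0.0541 to 0.0685). With MSC-CM 0 were called in these lists by limma, edgeR and DESeq2. Unadjusted p was under 0.05 there for 4 of the 11 inflammatory genes, 3 of the 11 transcription factors, 1 of the 15 regulators and 2 of the 22 CSF1R genes, against 5.6% of all genes tested.

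Of the other growth factors and receptors, FLT3, a receptor kinase related to CSF1R and a dendritic cell marker, was the only call. It rose with IL-1ß from 1.65 ± 0.440 to 4.50 ± 0.701 CPM (1.06, adjusted p = 0.0494), a call lost in each fit that left out 1 library (adjusted p of 0.0852 to 0.208) and with a pseudocount of 0.1, no filter, TMM, RLE or edgeR (0.0564 to 0.147), and fell with PRP lysate to 0.951 ± 0.481 CPM (-1.52, adjusted p = 0.000718). KIT, PDGFRA and PDGFRB, the kinases closest to CSF1R, were under a mean of 1 CPM and were not tested. IL5, which signals through the shared beta chain, had log2 fold changes of 0.37 with PRP lysate and 0.48 with ACS and was not called, and IL3, IL3RA and IL5RA were not analysed here.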

How the data were processed

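Polyadenylated RNA of 15 libraries (5 conditions, 3 each) was sequenced. Reads were trimmed at a Phred score of 20 with cutadapt, aligned with STAR 2.7.3 to EquCab3.0, counted with HTSeq on Ensembl annotation and scaled in Partek by the study; the authors deposited CPM for 16932 protein-coding genes. The strand setting is not given in the sources used here. The columns sum to 982495 to 991421 CPM, and 99.5% of values were whole reads within 0.05 reads, which edgeR and DESeq2 used.

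Genes averaging 1 CPM or more (11628) were tested on log2(CPM + 1) by limma with the trend option, all conditions in 1 model; fold changes on this scale understate those of low genes. Intervals are 95%. The members and lists were chosen with earlier results of these data known. From each list, at most the 3 called genes with the largest fold change per comparison with IL-1ß were named, and LGMN, INHBA, HTR7 and FLT1 were added after their values were seen, as were CISH and PIM1. Some genes counted in the lists are not reported here by name.

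Deviations from the group means of same-numbered PRP lysate and MSC-CM libraries correlated at 0.635, 0.255 and 0.419, each over 0.1, which held for no other pair of conditions; crossed pairs of the second and the third numbers reached 0.470 and 0.388. The reported tests used no pairing unless stated. A replicate block was fitted as an alternative over the 12 numbered libraries, and over PRP lysate and MSC-CM only; ACS titles carry no number. Alternatives were a pseudocount of 0.1, no filter, TMM or RLE scaling, edgeR, DESeq2, only the 2 groups compared, a replicate block, no fold threshold, and leaving out each library. Leaving out both the third IL-1ß and first PRP lysate library, and pairing PRP lysate with MSC-CM only, were added after the data were seen. The main limma fit, edgeR and DESeq2 were tested on simulated data for IL-1ß against untreated. The other alternatives and comparisons were not simulated. Versions were limma 3.58.1, DESeq2 1.42.0 and edgeR 4.0.16 under R 4.3.3, with matplotlib 3.10.9 under Python 3.11.15.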

Additional observations from a re-analysis of the deposited data

How the results depend on the processing

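The number of members called was recomputed under each alternative, and 115 of 158 counts stayed within 1.5 times the main count while 43 did not. IL-1ß against untreated (0 calls) gave 2 with DESeq2 and 1 without the third IL-1ß and first PRP lysate library, and MSC-CM against IL-1ß (0) gave 1 by unadjusted p. PRP lysate against IL-1ß (2) gave 1 without a filter, 0 with only the 2 groups, and 1 with the replicate block. ACS against IL-1ß (1) gave 0 with only the 2 groups, 3 without the pair of libraries and 2 without a fold threshold. PRP lysate against untreated (3) gave 0 with only the 2 groups and 1 with the block. ACS against untreated (0) gave 1 each with DESeq2, with only the 2 groups, without the pair and without a fold threshold. PRP lysate against MSC-CM (2) gave 1 without a filter, with only the 2 groups and with the block over 12 libraries, and 4 with these 2 conditions paired alone. ACS against MSC-CM (1) gave 0 without a filter and with edgeR, 2 with DESeq2 and without a fold threshold, and 3 with only the 2 groups and without the pair.

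Leaving out 1 library at a time gave 1 to 2 calls for PRP lysate against IL-1ß, 0 to 3 for ACS against IL-1ß, 1 to 2 for PRP lysate against untreated, 1 to 2 against MSC-CM and 0 to 1 for ACS against MSC-CM, and 0 in the other 5 comparisons. CSF3 with PRP lysate against IL-1ß was 1.06 without the first PRP lysate library and reversed from 0.30 to -0.13 and -0.04 without the second or the third PRP lysate library. Of 503 recomputed fold changes of members (34 results), 429 kept direction and side of the threshold, 45 lost the call, 27 gained it and 2 reversed. Of 379 others (26 results with an unadjusted p over 0.05), 54 changed sign. Of 496 for list genes, 388 kept their call and 108 lost it. The cause was not tested. The block, whose numbers did not pair the libraries of other conditions (correlations of -0.775 to 0.590), changed no other count of members beyond 1.5 times. No paired analysis was possible for ACS because its titles carry no number.

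CSF3, at 3.34 to 52.9 CPM, had the largest standard error of the 6 members (0.539 on the log2 scale).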
